A study of Mus musculus with 12 samples.

Results

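The 7 genes described here encode subunits of the voltage-gated calcium channels of the heart, out of 48526 genes counted in each library. They were chosen by name: the pore-forming α1 subunits of L-type channels, *Cacna1c* (Cav1.2) and *Cacna1d* (Cav1.3), those of T-type channels, *Cacna1g* (Cav3.1) and *Cacna1h* (Cav3.2), and the auxiliary subunits *Cacnb2* (β2), *Cacna2d1* (α2δ1) and *Cacna2d2* (α2δ2). L-type channels open at depolarized voltages, carry the calcium current of the plateau of the action potential and trigger calcium release and contraction. T-type channels open at more negative voltages and are known from nodal and conduction cells and from the fetal heart. In L-type channels, the intracellular β subunit and the largely extracellular α2δ subunit bind the α1 subunit and raise the number of channels at the membrane.

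The libraries came from Purkinje cells (PCs), the cells of the ventricular conduction network, and from ventricular myocytes (VMs), taken from adult mice with intact *Ncam-1* (WT) or without it (KO). NCAM-1 is a neural cell adhesion molecule of the immunoglobulin family. All mice carried the *Cntn2*-EGFP reporter, a bacterial artificial chromosome transgene kept on a CD1 background, and the *Ncam-1*-/- line, kept on C57BL/6, lacks the gene in every cell of the animal from conception, so that no effect of the deletion in PCs can be separated from effects elsewhere. Hearts were perfused and digested with enzymes, and the cells, labelled with the mitochondrial dye TMRM at 50 nM, were sorted into PCs (RFP+GFP+) and VMs (RFP+GFP-). Each genotype gave 3 PC libraries and 3 VM libraries, and nothing in the sample descriptions says from how many hearts each was made.

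The nuclear genes received between 1532393 and 6761356 counts in a library, after mitochondrial genes had taken 79.0% to 91.3% of all counts on genes. The shallowest library was WT PC replicate 2, in which 63.9% of read pairs were not aligned and 11847 genes had a count. *Ncam1* had 83, 34 and 116 counts in the WT PC libraries, 0, 1 and 1 in KO PCs, 6, 0 and 9 in WT VMs and none in KO VMs. *Cntn2*, whose regulatory sequence drives the reporter used for sorting, had normalized counts of 237, 451 and 533 in WT PCs and 38.67, 49.2 and 452 in KO PCs, against 2.22 to 8.99 in VMs. Normalized counts are counts scaled for the effective size of the library, as TMM normalization estimates it. KO PC replicate 3 lay within the range of WT PCs, and KO PC replicates 1 and 2 lay between WT PCs and VMs.

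The difference between the T-type and the L-type α1 subunits can be read in the codons of the pore. Each α1 subunit has 4 repeats, and an acidic residue in the pore loop of each repeat forms the filter that selects calcium. Codons for the filter residue of the third repeat and of the fourth are shown for the 4 α1 members because they set the groups used below apart. They were read from spliced GENCODE transcripts on GRCm38, all on the minus strand. Each line gives 30 bases from 5′ to 3′, with the codon of the acidic residue in capitals.
Cacna1c, repeat III: gtctccaccttcGAAgggtggccagagctg
Cacna1d, repeat III: gtctcaacttttGAGggctggcccgcgttg
Cacna1g, repeat III: ctggcctccaagGATggctgggttgacatc
Cacna1h, repeat III: ctgtcatccaagGATggctgggtaaacatc
Cacna1c, repeat IV: tgtgccaccggaGAGgcctggcaggacatc
Cacna1d, repeat IV: tgtgcaacagggGAAgcctggcaggagatc
Cacna1g, repeat IV: gtctccactggtGACaactggaatggtatt
Cacna1h, repeat IV: gtgtccactgggGACaactggaatgggatc

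In both of these repeats *Cacna1c* and *Cacna1d* have a glutamate codon and *Cacna1g* and *Cacna1h* an aspartate codon. In the first repeat and in the second all 4 genes have a glutamate codon. The repeat III stretches are in exon 24 of *Cacna1g* at chr11:94426456-94426485 and exon 24 of *Cacna1h* at chr17:25383493-25383522, and in *Cacna1c* and *Cacna1d* they cross an exon junction. The repeat IV stretches are in exon 36 of *Cacna1c* at chr6:118614047-118614076, exon 36 of *Cacna1d* at chr14:30075941-30075970, exon 32 of *Cacna1g* at chr11:94416412-94416441 and exon 31 of *Cacna1h* at chr17:25377768-25377797. Any pair of the 7 genes shared no 50-base stretch of their annotated exons, 50 bases being the read length.

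By count per kilobase of merged exon, *Cacna2d1* was the most abundant member, with a mean of 185 ± 32.3 (SD, n = 12 libraries). It was followed by *Cacna1c* at 59.1 ± 10.5 and *Cacnb2* at 35.1 ± 9.52. *Cacna2d1* lay above *Cacna1c* and *Cacna1c* above *Cacnb2* in 12 of 12 libraries, although the ranges of *Cacna1c* and *Cacnb2* overlapped between libraries. The other 4 members were much lower, *Cacna1g* at 4.04 ± 2.82, *Cacna1h* at 3.46 ± 4.37, *Cacna2d2* at 1.54 ± 1.75 and *Cacna1d* at 0.728 ± 0.574 per kilobase. The ranges of these 4 neighbours overlapped, and *Cacna1g* was above *Cacna1h* in 9 of 12 libraries, *Cacna1h* above *Cacna2d2* in 9 and *Cacna2d2* above *Cacna1d* in 8. The first 3 places were held by the same genes in each of the 4 groups. In KO VMs alone *Cacna2d2* was in the last place, at 0.329 ± 0.424 against 0.540 ± 0.0274 for *Cacna1d* (SD, n = 3), with overlapping ranges.

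On GRCm38 the members lie on 7 chromosomes. *Cacna1c* is at chr6:118587240-119196418, *Cacna1d* at chr14:30039939-30491455, *Cacna1g* at chr11:94408391-94474198 and *Cacna1h* at chr17:25374285-25433783, all on the minus strand. *Cacnb2* is at chr2:14603088-14987908, *Cacna2d1* at chr5:15934691-16374511 and *Cacna2d2* at chr9:107399612-107529343, all on the plus strand. *Cacna2d2* shares its chromosome with *Ncam1*, the deleted gene, at a distance of 57.6 Mb. Counts were taken over whole genes and hold all annotated isoforms together.

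**Figure D1:**
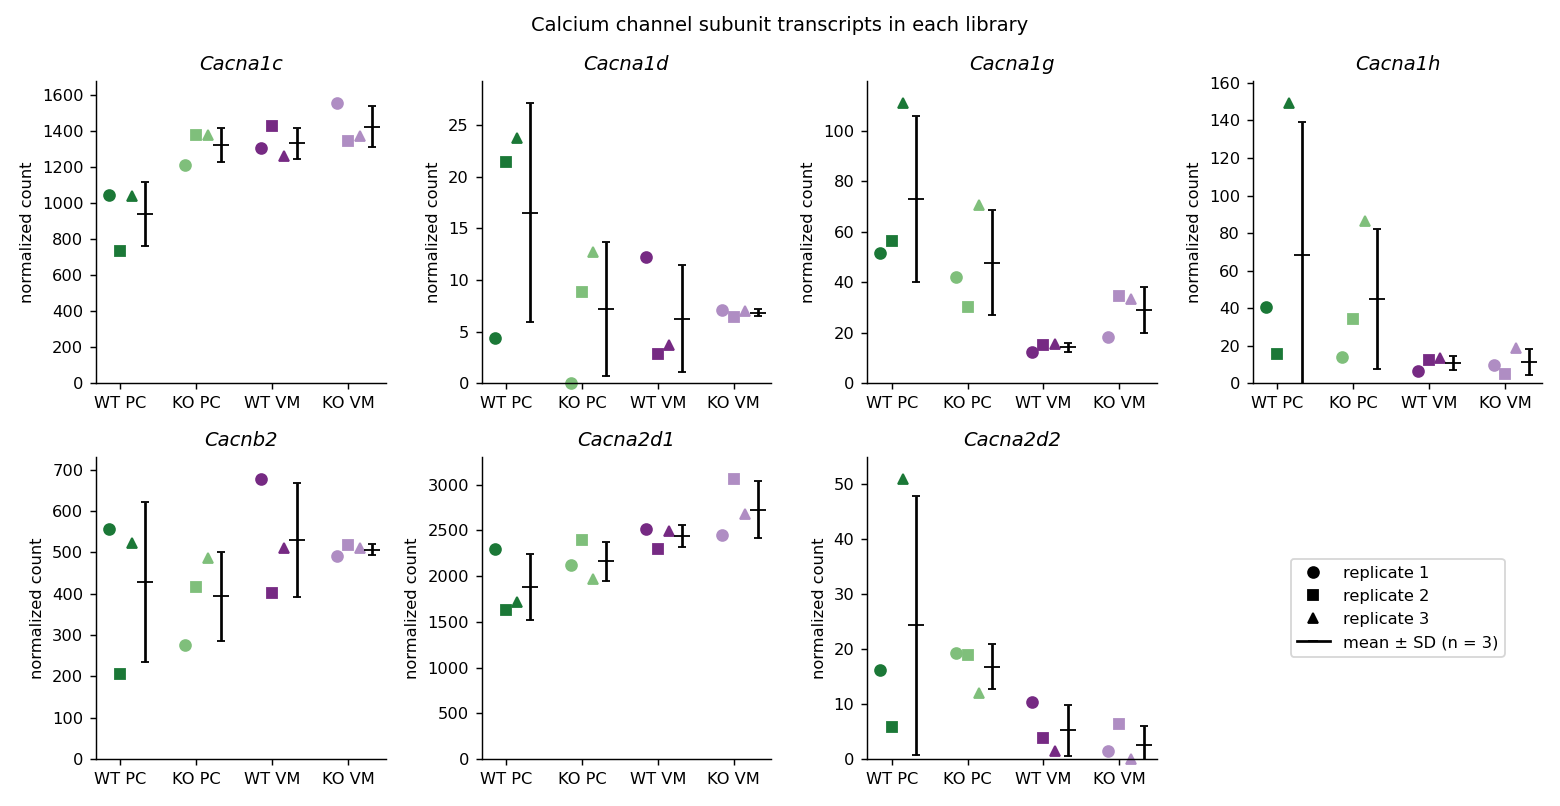
Normalized count (vertical axis, linear from 0, a separate scale for each gene) of the 7 members in the 12 libraries, by group, with symbols for replicates and black marks for the mean ± SD of 3 libraries. *Cacna1g* and *Cacna1h* reach their highest values in WT PC replicate 3 (111 and 149), whereas *Cacna2d1* is lowest in WT PCs (mean 1881) and highest in KO VMs (mean 2728).

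Whether PCs and VMs differ in these channels was asked first in the T-type α1 subunits. *Cacna1g*, which encodes the main T-type pore of the adult mouse heart, had normalized counts of 51.4, 56.6 and 111 in WT PCs, 42.2, 30.3 and 70.8 in KO PCs, 12.2, 15.1 and 15.5 in WT VMs and 18.4, 34.7 and 33.6 in KO VMs. In WT the groups did not overlap, as for 7.29% of genes higher in all PC libraries. In KO 2 of the 3 PC libraries lay above every VM library. Over both genotypes *Cacna1g* was higher in PCs by 1.55 on the log2 scale (SE 0.31, edgeR adjusted p = 0.0224), and the mean was 60.4 ± 28.3 in PCs against 21.6 ± 9.93 in VMs (SD, n = 6 each).

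*Cacna1h*, which encodes the other T-type pore of the heart, had normalized counts of 40.5, 15.6 and 149 in WT PCs, 14.1, 34.1 and 86.2 in KO PCs, 6.56, 12.2 and 13.3 in WT VMs and 9.90, 5.14 and 18.5 in KO VMs. Replicate 3 was the highest PC library in each genotype, and 1 KO PC library lay within the range of KO VMs. Over both genotypes it was higher in PCs by 2.36 (SE 0.55, edgeR adjusted p = 0.0463), at 56.6 ± 52.3 against 10.9 ± 4.87 normalized counts (SD, n = 6 each). The exact permutation test over 400 relabellings within genotype gave a two-sided p of 0.015 for *Cacna1g* and 0.02 for *Cacna1h*, where 0.005 is the smallest it can give.

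*Cacna1g* and *Cacna1h* were thus 2 of the 7 members called higher in PCs over both genotypes, and none was called lower. All 7 passed the filter on low counts here. Of the 11323 genes tested, 1.46% were called higher and 0.00883% lower. At an unadjusted p under 0.05, 3 members were higher and 2 lower, against 8.54% and 2.82% of all genes. The median log2 fold change was 0.77 over the 7 members and 0.02 over all genes tested. The former was the value of *Cacna1d*, a low member with an interval from -0.62 to 2.16. *Cacna1g*, *Cacna1h* and *Cacna2d2* lay above it, and *Cacna1c*, *Cacnb2* and *Cacna2d1* lay below 0.

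The calls on *Cacna1g* and *Cacna1h* depended on single libraries. With 1 library left out, the number of members called ran from 0 to 3. It was 0 without WT PC replicate 3, KO PC replicate 3, KO VM replicate 1, KO VM replicate 3 or any of the WT VM libraries, and 1 without KO PC replicate 2 or KO VM replicate 2. Without WT PC replicate 3 the difference was 1.32 for *Cacna1g* (edgeR adjusted p = 0.0585) and 1.73 for *Cacna1h* (adjusted p = 0.109). Without WT PC replicate 2, the shallowest library, 3 members were called. Every fit with a library left out kept both genes higher in PCs, by 1.31 to 1.67 for *Cacna1g* and by 1.73 to 2.65 for *Cacna1h*. Without the mitochondrial genes the edgeR adjusted p of *Cacna1h* was 0.0522, and 1 member was then called. No member had its 6 PC libraries apart from its 6 VM libraries, where 1.40% of genes were higher in every PC library and 0.486% lower.

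*Cacna2d2*, an α2δ subunit best known from cerebellar neurons, had PC normalized counts of 16.1, 5.85 and 50.9 in the WT libraries and 19.3, 18.9 and 12.03 in KO libraries. The VM libraries had 10.3, 3.76 and 1.48 in WT mice and 1.41, 6.42 and 0 in KO mice. The KO groups did not overlap, as for 8.66% of genes higher in all KO PC libraries. In WT the lowest PC library, replicate 2 with 3 counts, lay within the VM range. The difference over both genotypes was 2.45 (SE 0.69, edgeR unadjusted p = 0.00267, adjusted p = 0.0983), which missed the threshold, and the exact permutation p was 0.01. DESeq2, limma voom with sample quality weights and edgeR without the filter on low counts each called it, with adjusted p-values down to 0.00296.

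The abundant subunits lay the other way. *Cacna2d1*, the main α2δ subunit of the heart, had 2297, 1633 and 1713 normalized counts in WT PCs and 2123, 2394 and 1966 in KO PCs, against 2515, 2301 and 2497 in WT VMs and 2445, 3061 and 2677 in KO VMs. Within each genotype the PC libraries were all below the VM libraries, as for 6.56% of genes in WT and 6.92% in KO. The margin in WT was narrow, 2297 against 2301. The difference was -0.35 (SE 0.12, edgeR unadjusted p = 0.0103, adjusted p = 0.201). The unadjusted exact permutation p of 0.005 is the smallest the design allows, and separation within both genotypes fixes it at that value. Voom with sample quality weights gave an adjusted p of 0.0354.

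*Cacna1c*, the L-type pore of working myocardium, had 1042, 731 and 1036 normalized counts in WT PCs and 1209, 1375 and 1377 in KO PCs, against 1304, 1425 and 1262 in WT VMs and 1551, 1346 and 1372 in KO VMs. The groups were apart in WT, as for 6.56% of genes lower in all PC libraries, and overlapped in KO. Over both genotypes the difference was -0.31 (SE 0.12, edgeR unadjusted p = 0.0228, adjusted p = 0.310) with an exact permutation p of 0.03.

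*Cacnb2*, the main β subunit of the heart, had 557, 205 and 524 normalized counts in WT PCs and 276, 417 and 486 in KO PCs. WT VMs had 677, 402 and 510 and KO VMs 492, 517 and 511. The difference of -0.33 (SE 0.22) had an edgeR adjusted p of 0.639, with an interval from -0.79 to 0.14. *Cacna1d*, the L-type pore of nodal and atrial cells, was near the floor, with at most 41 counts in a library, none in KO PC replicate 1, and a difference of 0.77 (SE 0.65, edgeR adjusted p = 0.738). Its interval ran from -0.62 to 2.16, so that neither an equal level nor a difference of 4-fold was set aside at this depth.

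**Figure D2:**
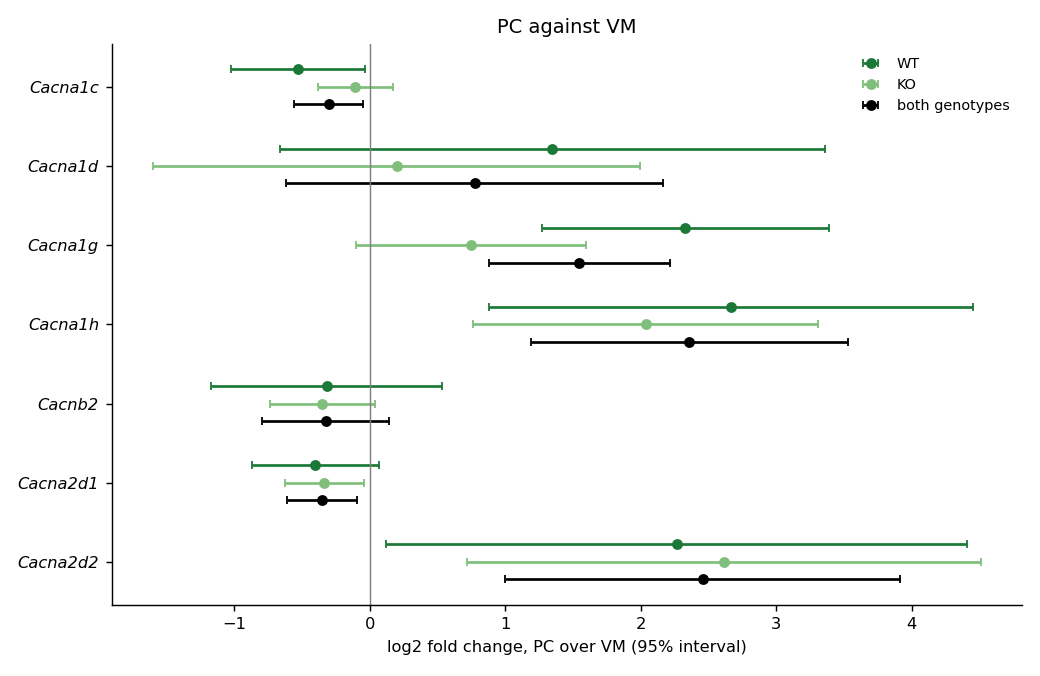
Log2 fold change of each member, PC over VM, in WT (6 libraries), in KO (6 libraries) and over both genotypes (12 libraries), with 95% intervals from edgeR and a line at 0. *Cacna1g*, *Cacna1h* and *Cacna2d2* lie to the right of 0 in every fit (1.55, 2.36 and 2.45 over both genotypes), and *Cacna1c*, *Cacnb2* and *Cacna2d1* to the left.

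Within WT alone no member passed the adjusted threshold, where 0.110% of 11822 genes were called, all of them higher. *Cacna1g* came nearest, higher in WT PCs by 2.33 (SE 0.47, edgeR unadjusted p = 0.000758, adjusted p = 0.218), at rank 40 of the genes tested. At an unadjusted p under 0.05, 3 members were higher (*Cacna1g*, *Cacna1h* by 2.67 and *Cacna2d2* by 2.26) and 1 was lower (*Cacna1c*, -0.53), against 5.14% and 1.22% of all genes. *Cacna1g* and *Cacna1h* were higher in all 3 WT PC libraries than in any WT VM library, as were 7.29% of genes, and *Cacna1c* and *Cacna2d1* were lower in all, as were 6.56%. The count of 0 depended on the fit: DESeq2 and the joint fit of 12 libraries each called *Cacna1g*, and voom, edgeR without the filter, and edgeR without WT PC replicate 2 each called 2 members, *Cacna1g* and *Cacna1h*.

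Within KO no member was called either, where 0.863% of 10779 genes were higher at the adjusted threshold and 0.00928% lower. *Cacna1h* was higher in KO PCs by 2.04 (SE 0.60, edgeR adjusted p = 0.156) and *Cacna2d2* by 2.61 (SE 0.89, adjusted p = 0.253). *Cacna2d1* was at -0.34 (SE 0.14, adjusted p = 0.414), and *Cacna1g* at 0.75 (SE 0.40, unadjusted p = 0.0816, adjusted p = 0.604). At an unadjusted p under 0.05, 2 members were higher and 1 lower, against 7.11% and 2.60% of all genes. The libraries did not overlap for *Cacna2d2*, higher in KO PCs as 8.66% of genes were, nor for *Cacnb2* and *Cacna2d1*, lower as 6.92% were. Without the filter on low counts, *Cacna1h* was called.

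The balance between subunits of 1 kind was measured within each library as a share of raw counts, which no scaling between libraries can change. *Cacna1g* and *Cacna1h* together made up 8.08%, 8.75% and 19.7% of the counts on the 4 α1 members in WT PCs and 4.44%, 4.45% and 10.2% in KO PCs. The T-type share was 1.40%, 1.88% and 2.23% in WT VMs and 1.78%, 2.86% and 3.64% in KO VMs. Every PC library was above every VM library. The means were 9.26% ± 5.62 in PCs and 2.30% ± 0.820 in VMs (SD, n = 6 each), a difference of 1.98 in mean log2 odds with an exact permutation p of 0.005, the smallest possible, and 0.04 after Benjamini-Hochberg adjustment over 8 share tests. The adjusted p rose to 0.08 without KO PC replicate 3 and to 0.06 without KO VM replicate 1. The shares use the counts tested above for single members and are no separate evidence. Like the members, they were chosen with earlier results of these data known.

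WT PC replicate 3 and KO PC replicate 3 stood above the other PC libraries of their genotype in T-type share, with intervals that did not overlap. In WT PC replicate 3 the 95% Clopper-Pearson interval was 18.1% to 21.4%, from 450 of 2284 counts, whereas in WT PC replicate 1 it was 7.06% to 9.19%. In KO PC replicate 3 it was 8.95% to 11.5%, and in KO PC replicate 2 it was 3.33% to 5.81%. These libraries carry no molecular identifiers, so read pairs may repeat a molecule. The intervals treat each pair as independent, cover counting error only and may be too narrow.

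Of the counts on *Cacna2d1* and *Cacna2d2* together, *Cacna2d2* made up 0.697%, 0.357% and 2.88% in WT PCs and 0.902%, 0.785% and 0.608% in KO PCs. It made up 0.408%, 0.163% and 0.0592% in WT VMs and 0.0578%, 0.209% and 0% in KO VMs. Other α2δ genes were not part of this total. All but 1 PC library were above every VM library. The difference in mean log2 odds was 2.90 (exact permutation p = 0.01, adjusted p = 0.04). It lay between 2.45 and 3.30 with any single library left out, but the adjusted p then rose above the threshold for 8 of the 12 libraries, to 0.06 to 0.08. These were WT PC replicates 1 and 3, all 3 KO PC replicates, WT VM replicates 2 and 3 and KO VM replicate 1.

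The balance within the T-type and within the L-type pair was not shown to differ. *Cacna1g* was 57.4% ± 15.7 of T-type counts in PCs and 65.1% ± 11.9 in VMs (SD, n = 6 each, exact permutation p = 0.385). *Cacna1d* was 1.18% ± 1.12 of L-type counts in PCs and 0.475% ± 0.251 in VMs (exact permutation p = 0.465).

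**Figure D3:**
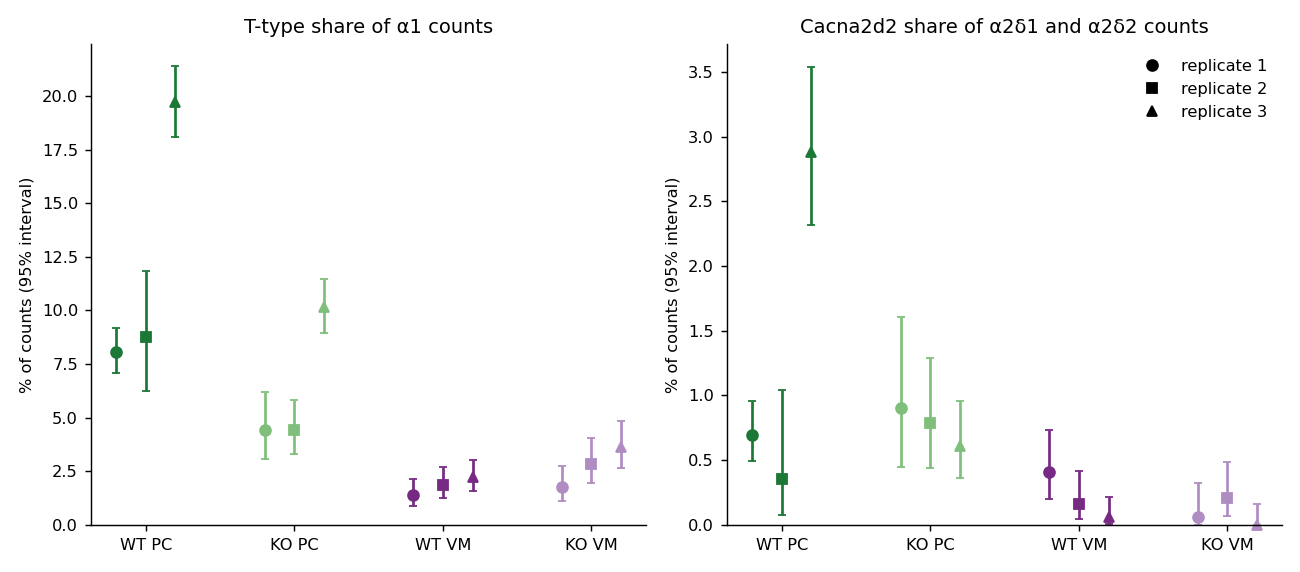
Share of raw counts per library (vertical axis, %, from 0) of *Cacna1g* plus *Cacna1h* among the 4 α1 members (left) and of *Cacna2d2* among the α2δ members (right), by group, with 95% Clopper-Pearson intervals. The T-type share is at least 4.44% in PCs and at most 3.64% in VMs, and WT PC replicate 3 is the highest library on both sides (19.7% and 2.88%).

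Transcripts of other cell types moved with the PC sort. The summed normalized counts of 6 endothelial markers were 476 to 1549 in PCs and 65.1 to 499.8 in VMs. Fibroblast markers (7 genes) were at 657 to 1672 against 65.1 to 384, and leukocyte markers (6 genes) at 236 to 591 against 9.90 to 131. Of the markers tested over both genotypes, 2 of 6 endothelial, 4 of 6 fibroblast, 1 of 4 leukocyte and 3 of 7 smooth muscle and pericyte markers were called higher in PCs and none lower. The smooth muscle and pericyte sum, of 8 genes, was 4005 to 6688 in PCs and 4285 to 4949 in VMs. Most of it was *Abcc9*, with group means from 3319 to 4281 and a difference of -0.13 (edgeR adjusted p = 0.752), and the called members of that list were *Rgs5* (1.58), *Pdgfrb* (2.37) and *Kcnj8* (2.40). The sum of 6 atrial or nodal markers was 114 to 999 in PCs against 59.0 to 288 in VMs. Smooth muscle cells are also known to express T-type and L-type channels. The part of these cell types in the differences of *Cacna1g*, *Cacna1h* and *Cacna2d2* was not tested.

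WT PC replicate 3 and KO PC replicate 3, the PC libraries of each genotype with the most T-type transcript, held different places in these sums. WT PC replicate 3 was the lowest WT PC library in fibroblast markers (706 against 1050 and 1672) and in atrial or nodal markers (314 against 407 and 999). It lay between the other WT PC libraries in endothelial (676), smooth muscle and pericyte (4569) and leukocyte markers (251). KO PC replicate 3 was the lowest KO PC library in endothelial (476) and fibroblast markers (657), lay between the others in smooth muscle and pericyte (5589) and leukocyte markers (243), and was the highest in atrial or nodal markers (599 against 114 and 241). The 2 replicates had the highest sums of 8 Purkinje cell markers in their genotypes. These were 1888 in WT, against 763 and 1592, and 1228 in KO, against 343 and 285. WT PC replicate 2 had the 1592, with a T-type share of 8.75% beside 8.08% in WT PC replicate 1. Cardiomyocyte markers, 8 genes, summed to between 188959 and 219338 in PCs and to between 194400 and 247972 in VMs, and 6 of 7 neuron and Schwann cell markers were at 3 or fewer counts in every library. In such bulk libraries fewer cells of a type and less RNA per cell cannot be told apart.

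The pattern of *Cacna1g* over the 12 libraries was most like those of *Sema3a* (Pearson r = 0.92 on log2 of the normalized count plus 2), *Plxdc2* (0.91) and *Cntn2* (0.90), among 8100 genes with a mean normalized count above 20. *Sema3a*, which encodes a secreted axon guidance cue, and *Cntn2* are among the Purkinje cell markers. *Cacna1h* was most like *Ezr* (0.95), which links the membrane to actin, *Hist1h4d* (0.89) and *Lmntd1* (0.89). *Cacna1c* was most like *Tmod4*, *Ppp6r2* and *Lrrc15* (0.96, 0.95 and 0.95), *Cacnb2* like *Zfand5*, *Ralgapa1* and *Ttn* (0.95, 0.94 and 0.94) and *Cacna2d1* like *Bag1*, *Pdha1* and *Dnm1l* (0.93, 0.93 and 0.92). *Cacna1g* and *Cacna1h* had r = 0.77 with each other, and *Cacna1g* had -0.54 with *Cacna1c* and -0.64 with *Cacna2d1*. The libraries fall into PCs and VMs and share depth and cell makeup within a sort, so these values describe the 12 libraries and nothing further. *Cacna1d* and *Cacna2d2* were too low for such a value.

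**Figure D4:**
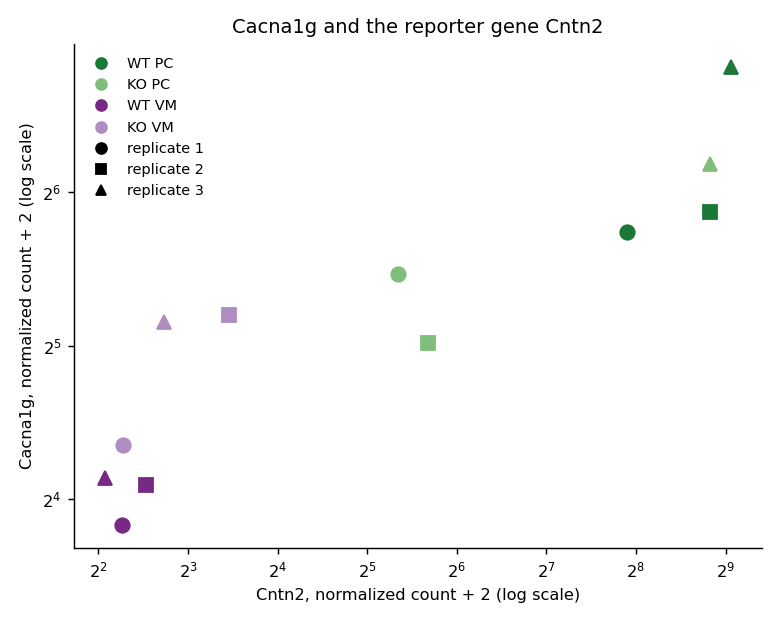
*Cacna1g* against *Cntn2* in the 12 libraries, both as normalized count plus 2 on log axes with base 2, colours for groups and symbols for replicates. The KO PC libraries with little *Cntn2* (38.67 and 49.2) have 42.2 and 30.3 of *Cacna1g*, and the KO PC library with 452 of *Cntn2* has 70.8.

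Loss of *Ncam-1* was compared in each cell type next. In PCs no member differed at an unadjusted p under 0.05 by edgeR, where 0.519% of 11754 genes were higher and 2.70% lower, and none of all genes passed the adjusted threshold. No member passed the adjusted threshold by DESeq2, voom or any other alternative run, and *Cacna1c* had an unadjusted p under 0.05 in 2 of the 8 that kept all libraries. All 7 members passed the filter. *Cacna1c* came nearest, with the 3 KO PC libraries (1209 to 1377) all above the 3 WT PC libraries (731 to 1042), as in 4.82% of genes (4.70% were lower in all), and it was the only member whose groups were apart. Its difference was 0.49 (SE 0.23, interval -0.02 to 1.01, edgeR unadjusted p = 0.0589, adjusted p = 0.993), and the exact permutation p of 0.1 is the smallest that 3 against 3 libraries can give.

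*Cacna1g* was at -0.60 (interval -1.70 to 0.50) and *Cacna1h* at -0.59 (-2.40 to 1.21) in KO PCs, with 2 of 3 and 1 of 3 KO libraries below every WT library. Without WT PC replicate 3 the sign of *Cacna1h* turned, to 0.66. *Cacna2d2* was at -0.60 (-2.34 to 1.15), *Cacna1d* at -1.06 (-3.47 to 1.35), *Cacnb2* at -0.13 (-0.99 to 0.73) and *Cacna2d1* at 0.20 (-0.30 to 0.70). These intervals hold both no change and, for the 4 low members, falls of 2-fold or more.

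In VMs 1 member of 6 tested was higher in KO at an unadjusted p under 0.05 and none lower, against 1.87% and 3.25% of 10737 genes. None was called after adjustment, where 0.00931% of genes were higher and 0.0279% lower. *Cacna1g* was at 18.4, 34.7 and 33.6 normalized counts in KO VMs, all above the 12.2, 15.1 and 15.5 of WT VMs, as in 4.60% of genes (5.03% were lower in all), and no other member's groups were apart. The raw counts were 13, 27 and 29 against 13, 16 and 21, and the difference was 1.01 (SE 0.39, edgeR unadjusted p = 0.0208, adjusted p = 0.931). The KO VM libraries were the shallower, with 2115665 to 2622827 nuclear counts against 3124490 to 3986000, and the part of depth was not tested. *Cacna2d2*, with 6 counts in all KO VM libraries together, did not pass the filter. The other 5 members differed by between -0.07 and 0.16, the widest interval being that of *Cacna1d*, -1.33 to 1.61.

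The genotype effect on *Cacna1g* was lower in PCs than in VMs by 1.61 on the log2 scale (SE 0.62, edgeR unadjusted p = 0.0203), but the adjusted p was 0.999. It was the only member at an unadjusted p under 0.05 in that contrast, where 1.03% of 11323 genes were higher and 1.86% lower, and no gene passed the adjustment. The PC over VM difference of *Cacna1g* correspondingly was 2.33 in WT and 0.75 in KO. Those values share libraries with the genotype comparisons and are no separate evidence. The Purkinje cell marker sum moved in the same way, from a mean of 1414 in WT PCs to 619 in KO PCs and from 86.1 in WT VMs to 148 in KO VMs, and its part in the *Cacna1g* value was not tested.

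Averaged over cell types, *Cacna1c* was higher in KO by 0.29 (SE 0.12, edgeR unadjusted p = 0.0271, adjusted p = 0.925), with an exact permutation p of 0.02 over 400 relabellings within cell type. It was the only member at an unadjusted p under 0.05, where 1.58% of genes were higher and 3.16% lower. After adjustment 0.00883% of genes were called higher and 0.0177% lower, and no member was. No member had its KO libraries apart from its WT libraries over both cell types, where 0.115% of genes were higher and 0.132% lower in all. Its unadjusted p ranged from 0.0194 to 0.0832 with single libraries left out. None of the 4 shares was shown to differ between genotypes, with exact permutation p-values from 0.325 to 0.610. The differences in mean log2 odds ran from -0.84 (*Cacna1d* share) to 0.39 (*Cacna1g* share). The T-type share difference of -0.23 was 0.00709 without WT PC replicate 3.

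**Figure D5:**
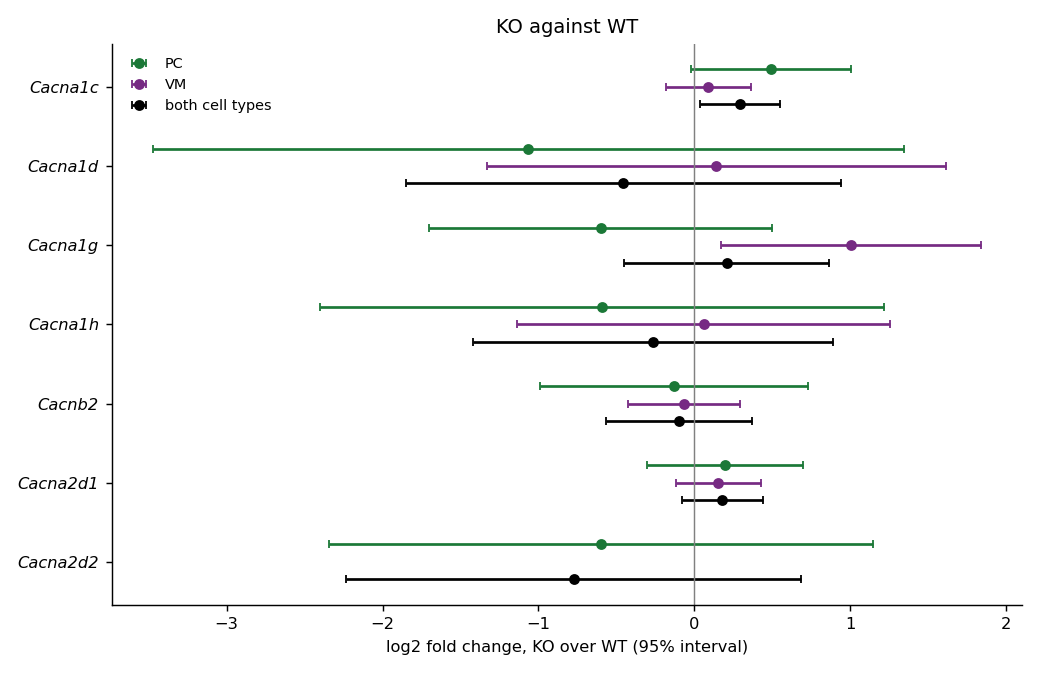
Log2 fold change of each member, KO over WT, in PCs (6 libraries), in VMs (6 libraries) and over both cell types (12 libraries), with 95% intervals from edgeR and a line at 0. *Cacna2d2* did not pass the filter in VMs and has no VM point, and *Cacna1g* lies at -0.60 in PCs and at 1.01 in VMs.

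Other genes of the channel family gave little further signal. Of 19 such genes, 12 had 3 or fewer counts in every library, among them 7 of 8 γ subunit genes, which belong mostly to skeletal muscle channels and neuronal receptors. Of the 6 other α1 genes only *Cacna1s*, the L-type pore of skeletal muscle, passed the filter over both genotypes. With at most 36 counts in a library, it was not shown to differ (-0.02, SE 0.52, edgeR adjusted p = 0.995). *Cacnb4*, a β subunit best known from the brain, had normalized counts of 21.4, 9.75 and 39.9 in WT PCs and 5.27, 1.26 and 7.35 in KO PCs, against 0.938 to 5.92 in VMs. Against WT VMs it was higher in WT PCs by 2.58 on the log2 scale (edgeR unadjusted p = 0.0119, adjusted p = 0.628). It was lower in KO PCs than in WT PCs (log2 fold change -2.31, unadjusted p = 0.0246, adjusted p = 0.993). The groups did not overlap in either comparison, as for 7.29% of all genes (higher in WT PCs) and 4.70% (lower in KO PCs). *Cacng6*, a γ subunit gene, had 68.3 normalized counts in WT PC replicate 2 and at most 8.67 in the other libraries. Its log2 fold change was 2.32 in WT PCs against WT VMs (edgeR unadjusted p = 0.0464, adjusted p = 0.779) and -3.35 in KO PCs against WT PCs (unadjusted p = 0.0229, adjusted p = 0.993). At most 5 of the 19 genes passed the filter in a comparison, and none was called after adjustment in any of the 7 comparisons. Of all genes, at most 1.46% were called higher (PCs against VMs over both genotypes) and 0.0279% lower (KO VMs against WT VMs).

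Of 28 genes for proteins that bind or regulate L-type channels, 20 were tested in PCs against VMs over both genotypes. None was called after adjustment, where 1.46% of all genes were higher and 0.00883% lower. *Prkar1a*, a regulatory subunit of protein kinase A, was at -0.28 in PCs (edgeR unadjusted p = 0.0388, adjusted p = 0.399). It was the only one of the 20 at an unadjusted p under 0.05, where 8.54% of all genes were higher and 2.82% lower. *Cav3*, the caveolin of muscle, was at -0.88 in KO PCs against WT PCs (edgeR unadjusted p = 0.0179, adjusted p = 0.993), and *Camk2d*, the main cardiac calcium/calmodulin kinase, at -0.35 in KO VMs against WT VMs (unadjusted p = 0.0152, adjusted p = 0.931). *Prkacb*, a catalytic subunit of protein kinase A, was at 0.37 in KO against WT over both cell types (unadjusted p = 0.0326, adjusted p = 0.925). The median log2 fold change of the 20 partners in PCs against VMs was -0.08, beside 0.02 over all genes tested.

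Some members share exon bases with other genes, which had few counts. *Cacna1d* overlaps *Chdh* on the opposite strand over 589 exon bases and *Cacna1h* overlaps *Tpsg1* over 158. *Chdh* had at most 2 counts and *Tpsg1* none in any library. *Cacnb2* shares exon bases with *Gm10849*, *Gm10848* and *Gm13269*, none with more than 14 counts in a library. The sources do not say whether strand was used in counting. If it was not, pairs in shared bases may have been left unassigned. The low counts of the other genes therefore cannot show how many pairs the members lost.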

How the data were processed

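The authors deposited raw counts of read pairs per gene and library, without normalization: 50 bp pairs from amplified RNA, mapped to mm10 with STAR 2.5.0c and counted with HTSeq 0.6.0 on the GRCm38.74 annotation, per the labels. Some counted genes carry identifiers newer than that annotation would hold, so a later release may have been used. Whether strand was used is not given in the sources used here. HTSeq's classes of unassigned pairs were left out of all tests. Groups and replicate numbers follow the sample titles. The source names number the WT libraries of each cell type 1, 3 and 4, so a replicate number shared between genotypes may not mark the same batch. Where nothing says that libraries came from separate animals, p-values measure the spread between these libraries only. Gene positions and exon lengths came from GENCODE on GRCm38. Depth is given in the report and limits what can be detected for the 4 low members.

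Each comparison of 2 groups used its 6 libraries, and contrasts over both genotypes or cell types used 12. Genes needed a mean normalized count above 5. Tests were edgeR 4.0.16 quasi-likelihood tests in R 4.3.3 with TMM normalization and Benjamini-Hochberg adjustment over all genes tested (threshold 0.05), with DESeq2 1.42.0, limma 3.58.1 voom, other scalings and filters, a replicate block and omission of single libraries as alternatives. Two-sided exact permutation tests took log2 of the normalized count plus 2, or the log2 odds of a share with 0.5 added to both counts. Likeness was Pearson's r for members with a mean of at least 20. The steps were tested on simulated data. The genes named are all members, other channel and partner genes with an unadjusted p under 0.05, the 3 most alike genes and cell type markers. *Cacna1s*, *Chdh*, *Tpsg1* and the genes overlapping *Cacnb2* were named after their values were seen. Members, gene lists and tests were chosen with earlier results of these data known.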

Additional observations from a re-analysis of the deposited data

How the results depend on the processing

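For PCs against VMs over both genotypes, 2 members were called in the analysis as reported. There were 1 without mitochondrial genes, 4 under limma voom (*Cacna1g*, *Cacna1h*, *Cacna2d1* and *Cacna2d2*) and 0 to 3 with single libraries left out. Within WT, where 0 were called, DESeq2 and the single fit of 12 libraries called 1, voom and no filter on low counts called 2, and omitting single libraries gave 0 to 2. Within KO, no filter called 1. For KO against WT, and for its difference between cell types, 0 members were called under every alternative run. The cause of these changes was not tested. With single libraries left out, the share differences in log2 odds for PCs against VMs ran from 1.75 to 2.12 for the T-type share and from 2.45 to 3.30 for the *Cacna2d2* share, and the T-type difference between KO and WT from -0.44 to 0.00709.

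The replicate block gave 0 called members for PCs against VMs over both genotypes (*Cacna1g* 1.49, edgeR adjusted p = 0.0516, *Cacna1h* 2.10, adjusted p = 0.0629) and changed no other call on a member. The numbers are not known to pair libraries: deviations of same-numbered PC and VM libraries correlated across 8100 genes with r from -0.00956 to 0.208, and each WT PC library correlated best with the WT VM library of its own number, whereas not every KO PC library did.

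Signs turned in some fits for 6 of the 7 members, all but *Cacna1c*. *Cacna1d* in KO PCs against KO VMs was -0.24 under voom and -0.078 with the block, and *Cacnb2* in KO VMs against WT VMs was 0.00799 under voom. With single libraries left out, *Cacnb2* ran from -0.53 to 0.014 in WT PCs against WT VMs. For KO PCs against WT PCs, *Cacna1h* ran from -1.53 to 0.66, *Cacnb2* from -0.46 to 0.085 and *Cacna2d2* from -1.03 to 0.52. For KO VMs against WT VMs, *Cacna1d* ran from -0.17 to 0.20, *Cacna1h* from -0.52 to 0.42 and *Cacnb2* from -0.21 to 0.13. For KO against WT over both cell types, *Cacna1g* ran from -0.016 to 0.43, *Cacna1h* from -0.73 to 0.36 and *Cacnb2* from -0.25 to 0.010. For the difference of the genotype effect between cell types, *Cacna1h* ran from -1.58 to 0.58, *Cacnb2* from -0.38 to 0.15, *Cacna2d1* from -0.055 to 0.21 and *Cacna2d2* from -0.61 to 2.18.

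Counts over all genes moved more than 1.5-fold. For PCs against VMs over both genotypes, 165 genes were higher and 1 lower, against 430 and 24 by DESeq2, 425 and 54 by voom, 544 and 17 with no filter, and 90 and 0 with the block. In WT, 13 were higher and 0 lower, against 123 and 1 by DESeq2, 127 and 3 by voom, 294 and 3 with no filter, 4 and 0 with the block and 38 and 0 in the single fit. In KO, 93 were higher and 1 lower, against 316 and 10 with no filter and 1 and 0 in the single fit. For KO against WT PCs, 0 were called, against 3 higher and 129 lower with no filter, 1 and 6 by DESeq2, 0 and 1 by voom and with the block, and 1 and 2 in the single fit. For KO against WT VMs, 1 was higher and 3 lower, against 14 and 33 with no filter, 3 and 7 by DESeq2, 1 and 6 with the block and 0 and 1 in the single fit. Over both cell types, 1 was higher and 2 lower, against 11 and 78 with no filter, 4 and 11 by DESeq2 and 5 and 4 by voom. For the difference between cell types, 0 were called, against 1 higher and 18 lower with no filter. With single libraries left out, the genes called higher in PCs ran from 56 (without WT VM replicate 2) to 396 (without WT PC replicate 2) over both genotypes and those called lower from 0 to 29. Higher calls ran from 1 (without WT VM replicate 1, 2 or 3) to 107 in WT, the most without WT PC replicate 2, and from 19 (without KO VM replicate 1) to 148 (without KO PC replicate 3) in KO. The shares of genes called in the report move with them. For KO against WT, 0 higher and 0 to 4 lower were called in PCs, 0 to 2 and 2 to 8 in VMs and 1 to 4 and 2 to 5 over both cell types. Counts of 41 or fewer limit *Cacna1d*, and KO VM counts of 5 or fewer limit *Cacna2d2*.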
